A study of Mus musculus with 7 samples.

Results

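Resting Paneth cells (PCs) are described here from the 3 libraries made after an injection of PBS, out of 7 libraries in the series; the other 4 were made after TNF and enter no value below. The libraries were picked out by label, as the 3 columns named PBS-1, PBS-2 and PBS-3 in the deposited table of raw counts. The mice were C57BL/6J, every library came from a different animal, and small intestine was collected 15 h after the injection. PCs had been purified with a cell sorter, total RNA was extracted on columns, and an Element AVITI instrument read the libraries from 1 end. Not given in the sources used here are the age and sex of the mice, the volume injected, the part of the small intestine, the antibodies and gate of the sort and the days of the work. With a single group there is no contrast and no test, so values are given per library, in the order of replicates 1, 2 and 3, or as the mean ± SD (n = 3).

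PCs sit at the bottom of the crypts of the small intestine between the stem cells, and they store antimicrobial proteins in large granules that are released into the crypt lumen. Their products include the alpha-defensins, small cysteine-rich peptides made as inactive precursors and cut to the active form in mouse by the protease Mmp7, and lysozyme, which cleaves bacterial cell walls. PCs arise from the secretory branch of the epithelium, which also gives goblet, enteroendocrine and tuft cells, and they supply WNT, EGF and Notch ligands to the neighbouring stem cells.

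The table held 55414 gene identifiers, of which 21857 had a count in at least 1 of the 3 libraries. The libraries held 17396479, 18388058 and 15511455 counts, so that 3 counts, taken as the floor for a gene at 0, corresponded to between 0.163 and 0.193 CPM (counts scaled to a sum of 1e6). Floors cover counting error only. Protein-coding genes took 97.7 to 98.2% of counts. Levels of different genes are compared per length, as TPM, which divides counts by the summed exon length of each gene and scales to the same sum. Whether reads covered whole transcripts or mainly their ends is not stated, and TPM holds only for the former, so shares of counts are given beside shares of TPM. A gene's own level in different libraries is compared as CPM on library sizes that were scaled by TMM (trimmed mean of M-values), written as scaled CPM. In sorted bulk samples, fewer cells of a type and less RNA per cell cannot be told apart.

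All 7 genes used to check the label were among the expressed genes. Lyz1 (lysozyme, chr10:117123698-117128775 in GRCm39) stood first by counts, with 108967, 93192 and 103521 CPM. Defa24 (an alpha-defensin, chr8:22224506-22225490) stood first by TPM, and Defa30 took rank 3. Itln1, an intelectin that binds microbial glycans, lay at 38993 ± 4268 TPM, Ang4, a secreted ribonuclease, at 6140 ± 291 TPM, and Mmp7 at 5564 ± 656 TPM. Kit, the stem cell factor receptor, was far less abundant, at 76.2, 81.7 and 100 TPM. The label of PCs thus held in each of the 3 libraries by every one of these genes.

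Because alpha-defensin transcripts held the largest share of TPM of any family examined, the ends of their coding sequences are shown first. The 102 coding bases before the stop codon, which fall in the part that encodes the mature peptide, were spliced from GENCODE M39 on GRCm39 and are written 5′ to 3′. They sorted the 28 alpha-defensin genes into 6 groups of at least 80% identity. Lower case letters equal the most abundant gene of the group and capitals mark bases that differ from it.
Defa24: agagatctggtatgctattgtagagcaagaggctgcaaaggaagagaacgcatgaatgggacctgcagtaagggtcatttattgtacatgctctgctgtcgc
Defa30: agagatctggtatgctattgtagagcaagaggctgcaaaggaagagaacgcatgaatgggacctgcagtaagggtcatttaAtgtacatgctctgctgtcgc
Defa17: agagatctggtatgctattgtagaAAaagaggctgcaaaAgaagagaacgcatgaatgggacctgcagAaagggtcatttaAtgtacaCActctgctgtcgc
Defa38: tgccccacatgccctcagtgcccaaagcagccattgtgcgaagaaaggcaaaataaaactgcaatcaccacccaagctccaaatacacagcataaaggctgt
Defa39: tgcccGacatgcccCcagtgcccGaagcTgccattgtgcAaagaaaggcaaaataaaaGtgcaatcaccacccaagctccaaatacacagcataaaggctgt
Defa29: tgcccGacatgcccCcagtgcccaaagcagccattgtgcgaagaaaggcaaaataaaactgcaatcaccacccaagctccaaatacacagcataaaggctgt
Defa22: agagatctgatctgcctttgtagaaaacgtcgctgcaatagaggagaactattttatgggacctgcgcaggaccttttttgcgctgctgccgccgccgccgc
Defa21: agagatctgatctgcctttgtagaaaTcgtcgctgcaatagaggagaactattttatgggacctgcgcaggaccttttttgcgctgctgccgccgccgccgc
Defa35: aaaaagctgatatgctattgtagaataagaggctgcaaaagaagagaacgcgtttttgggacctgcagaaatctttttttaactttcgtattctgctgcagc
Defa32: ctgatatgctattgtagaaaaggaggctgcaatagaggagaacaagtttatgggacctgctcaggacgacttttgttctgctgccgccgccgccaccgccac

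Counted from 1 at the 5′ end of these stretches, Defa30 differed from Defa24 by the single substitution T82A, and Defa21 from Defa22 by A27T. Defa29 differed from Defa38 at 2 positions, C6G and T15C, while Defa39 differed at 6. Defa17 carried 7 differences from Defa24, and Defa3 carried the same 7, so the stretch of both was identical. The Defa24 group held 10 genes, the Defa38 group 5, the Defa22 group 2, the Defa35 group 6, the Defa32 group 4, and Defa28 stood alone. All 5 genes of the Defa38 group had a coding sequence of 348 bases, against 279 for Defa24 and Defa22.

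The Defa24 group took 66.5 ± 1.74% of alpha-defensin counts, the Defa38 group 27.3 ± 0.664% and the Defa22 group 6.06 ± 1.12%. The Defa35 group took 0.136% on average, and the Defa32 group had 1 count in all 3 libraries together. The shares of the Defa24 and Defa38 groups changed little between mice, with 64.7, 66.5 and 68.2% for the former and 28.0, 27.1 and 26.8% for the latter. The Defa22 group held 7.05, 6.29 and 4.84%, lowest in replicate 3.

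These copies limit what a count of a single defensin can say. Over windows of 75 bases, a median of 62.3% of the transcript sequence of an alpha-defensin was also present in a transcript of another gene, and in 15 of 28 genes the share was over 50%. The leading genes were better separated, with 10.6% shared windows in Defa24, 20.7% in Defa30, 29.8% in Defa38 and 10.3% in Defa39. Defa22 shared 49.3% and Defa21 41.9%, while Defa17 shared 80.6% and Defa3 93.4%. In Defa32 and Defa33, 100% of windows were shared, in Defa20 98.6% and in Defa2 98.4%, and these 4 genes had 0 or 1 count. The treatment of reads with several matches is not stated, so the split between near-identical members is uncertain, and the sum over the family would be too low if such reads were left out. Defa31 also lies inside the annotated span of Defa41, so the 2 cannot be separated by position.

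Promoter sequence was looked up for the same genes, since they were abundant together. The bases before the transcript start come from RefSeq on GRCm38.p6, which held an entry for 16 of the 28 alpha-defensin genes and none for Defa24 or Defa39. The other Mmp7 entry and those of Lyz1, Itln1, Ang4 and Mptx2, which are not shown, held neither TATAAA nor CTTTGA in the 100 bases before the start. These 100 bases are shown for 1 member of each of the main groups that had an entry and for 1 of the 2 Mmp7 entries, with TATAAA and CTTTGA (or its reverse complement TCAAAG) in capitals.
Defa30, chr8:21134550-21134649, plus strand: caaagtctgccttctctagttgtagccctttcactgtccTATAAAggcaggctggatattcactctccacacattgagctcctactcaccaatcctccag
Defa38, chr8:21096051-21096150, minus strand: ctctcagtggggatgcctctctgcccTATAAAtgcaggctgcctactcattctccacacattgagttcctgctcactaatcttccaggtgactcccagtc
Defa22, chr8:21162177-21162276, plus strand: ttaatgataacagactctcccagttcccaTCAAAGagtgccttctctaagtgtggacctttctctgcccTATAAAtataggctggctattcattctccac
Mmp7, chr9:7691990-7692089, plus strand: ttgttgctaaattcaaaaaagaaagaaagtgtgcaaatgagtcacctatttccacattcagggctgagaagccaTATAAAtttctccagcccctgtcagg

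Within 250 bases before the start, TATAAA, the core of the TATA box, was read on the sense strand in 15 of the 16 alpha-defensin promoters (93.8%), and in 7.59% of all 32851 promoters. In the last 40 bases before the annotated start it was read in 7 of 16 (43.8%) and in 2.31% of all. CTTTGA, the core of the motif of Tcf and Lef factors, was read on either strand in 13 of 16 (81.2%), and in 13.8% of all promoters. Among 21 promoters of the other PC products, TATAAA was found in 23.8%, CTTTGA in 33.3% and ATTGTT, a core of the Sox motif, in 28.6%. In the alpha-defensins, ATTGTT was in 1 of 16 defensin promoters (6.25%) and in 9.42% of all, and CAAAGTCCA, a form of the Hnf4 motif, was in 0 of 16 and in 0.384% of all. No searched motif contains another. Defensin promoters are near copies of each other, as are Defa21 and Defa22, whose 100 bases were identical, so they are not independent, and a match of letters is not a bound site.

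The resting transcriptome was concentrated in few genes. The 10 genes with most counts held 34.9, 30.5 and 26.9% of all counts, the first 100 genes held 47.4, 42.2 and 38.0%, and 50% of counts lay in 157, 307 and 449 genes. By TPM, 3 genes were enough for 50% in every library. Between 30 and 33 genes reached 1000 TPM, while 11165, 11794 and 13262 genes reached 1 TPM. Concentration was highest in replicate 1 and lowest in replicate 3, and the number of genes at 1 TPM ran in the opposite order.

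**Figure D1:**
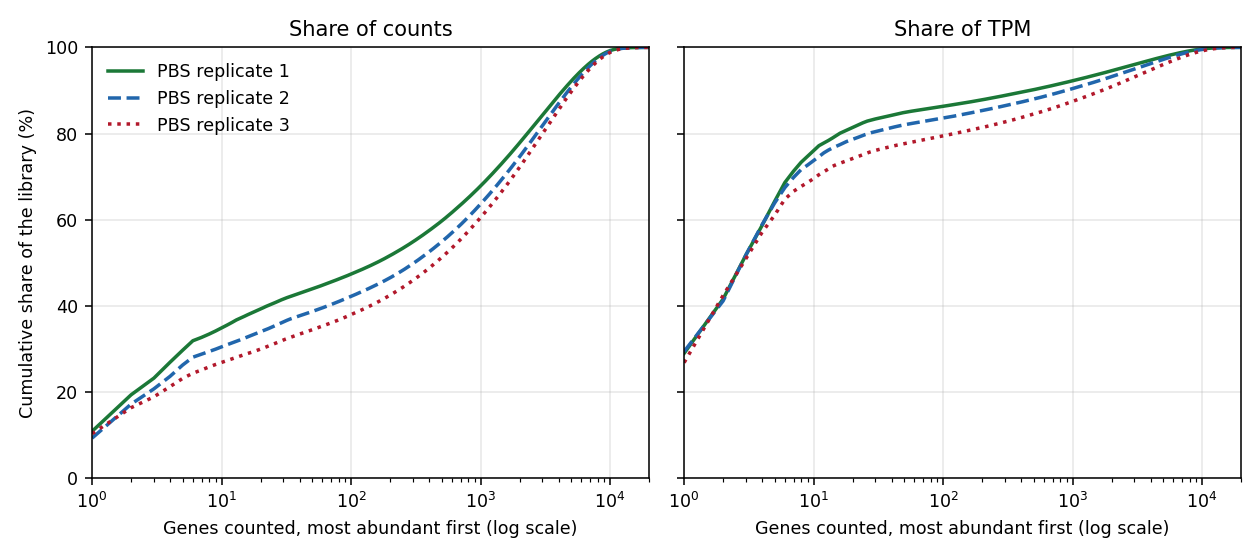
Cumulative share of the library (y axis, percent) held by the most abundant genes (x axis, number of genes counted from the most abundant, log scale), for counts on the left and TPM on the right, with 1 line for each of the 3 PBS libraries. At 10 genes and beyond, the line of replicate 1 lies highest and that of replicate 3 lowest, with 34.9 and 26.9% of counts in the first 10 genes.

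Genes whose products PCs secrete were the main part of the top ranks. Among the genes with most counts, they were 9 of the first 10, 13 of the first 20, 18 of the first 50 and 23 of the first 100. The 53 listed product genes, 28 alpha-defensins and 25 others, held 38.1, 33.4 and 28.5% of counts. On the TPM scale they held 81.1, 78.5 and 74.1%, a larger share because the defensin transcripts are short. A TPM value of any other gene therefore shifts with the defensins, and tends to be highest in replicate 3, where they took least.

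The alpha-defensins lie in a cluster of 709.934 kb at chr8:21515557-22225490 in GRCm39. Of the 28 genes, 24 had a count, 20 reached a mean of 1 TPM and 10 reached 1000 TPM. Together they took 19.2, 17.6 and 12.5% of counts and 58.6, 58.3 and 49.9% of TPM. Counts were uneven within the family: Defa24 alone held 45.7 ± 2.16% of alpha-defensin counts, the first 4 genes 90.5% and the first 7 genes 98.6%.

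Defa24 measured 289872, 294123 and 268363 TPM. Defa30, its near copy, measured 102080, 106562 and 85394 TPM. Defa38 measured 68741, 70500 and 61176 TPM. These 3 genes kept their order in each library. In scaled CPM, Defa24 ranged 1.75-fold over the libraries, Defa30 1.94-fold and Defa38 1.82-fold, and TPM narrows these ranges because the genes make up much of its sum. Defa39 measured 55819, 50242 and 39757 TPM, Defa22 26325, 23528 and 18166 TPM, and Defa21 20460, 17969 and 9046 TPM. Each of these was lowest in replicate 3. The low end of the expressed family was Defa42 and Defa43, at 11.2 and 11.7 TPM, and Defa25 and Defa27, at 6.32 and 6.89 TPM. Of 17 annotated alpha-defensin pseudogenes, 9 reached 1 TPM, led by Defa-ps7 at 685 TPM, and the sequence they share with intact genes was not measured.

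On scaled CPM the family summed to 215526, 173668 and 112631, a 1.91-fold range over the mice. Of the 20 alpha-defensin genes that passed the filter on low counts, 19 were highest in replicate 1 and 17 lowest in replicate 3. Over all 12928 genes past that filter, 32.9% were highest in replicate 1 and 36.3% lowest in replicate 3. From replicate 1 to replicate 3, the Defa24 group differed 1.82-fold, the Defa38 group 2.01-fold and the Defa22 group 2.79-fold. Members of a family share sequence and reads, so these are not 20 separate observations.

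**Figure D2:**
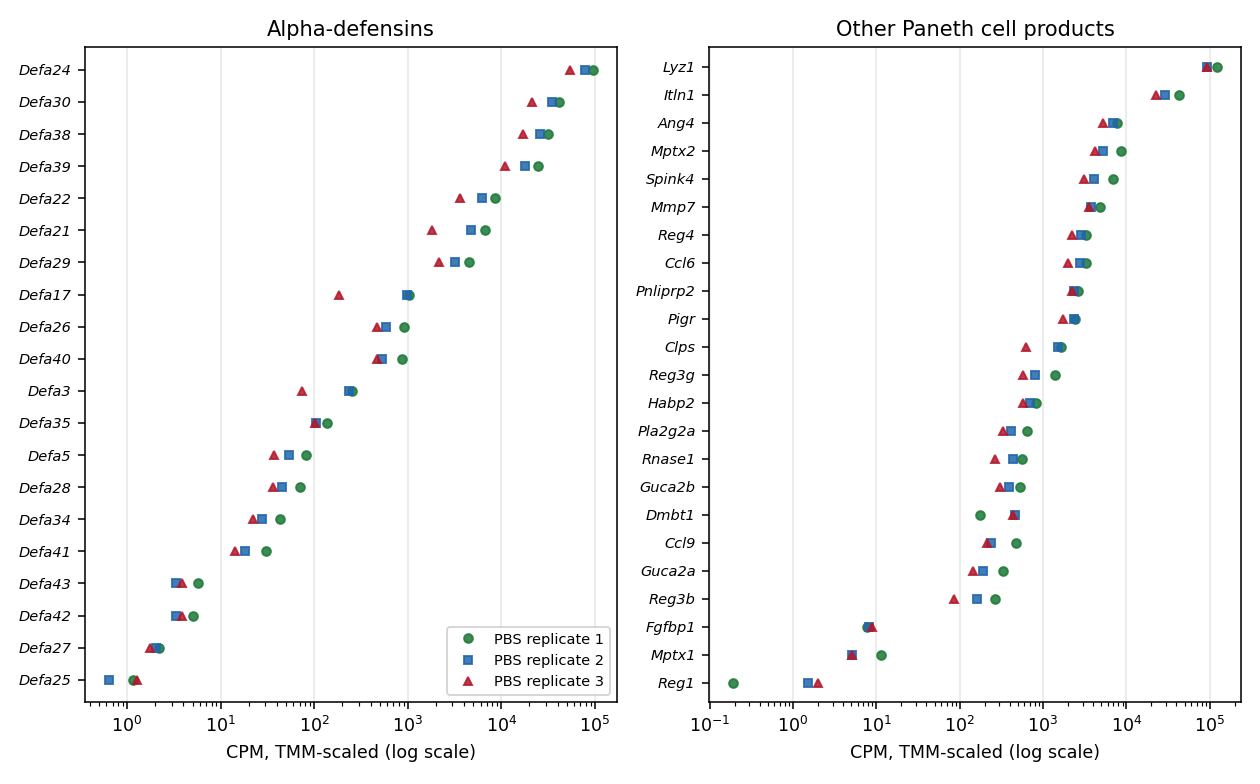
Scaled CPM (x axis, log scale) of the 20 alpha-defensin genes (left) and the 23 other product genes (right) with a mean of at least 1 TPM, with 1 row for each gene and 1 symbol for each of the 3 PBS libraries. Defa24 and Lyz1 head the panels at 54241 to 94983 and 92190.5 to 122255 scaled CPM, the symbol of replicate 3 lies furthest left for most genes, and Dmbt1 is lowest in replicate 1.

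The 25 other listed product genes held 18.9, 15.8 and 16.0% of counts, and 23 of them reached 1 TPM and 19 reached 100 TPM. Lyz1 measured 126028, 117384 and 155879 TPM and 122255, 92190 and 93272 scaled CPM. Its TPM was highest in replicate 3 and its scaled CPM in replicate 1, so the order depends on the scale. Defa24 exceeded Lyz1 by 2.30-fold, 2.51-fold and 1.72-fold in TPM. Lyz2, the lysozyme of macrophages, was at 5.35 TPM, so lysozyme transcripts of these libraries were nearly all from Lyz1. Windows of Lyz1 were shared with other transcripts in 5.50%.

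Itln1 followed among the other products, with 43446, 28769 and 22763 scaled CPM. Mptx2, a mucosal pentraxin, had 12161 ± 1951 TPM and 8713, 5304 and 4200 scaled CPM, and exceeded its paralogue Mptx1 by 874-fold on average. Spink4, a Kazal-type inhibitor found in granules of secretory cells, had 10410.0 ± 1928 TPM. Reg4, a secreted lectin, had 3830 ± 203 TPM, and Ang4 had 7811, 6871 and 5237 scaled CPM. In scaled CPM, Ang4 ranged 1.49-fold over the libraries, Reg4 1.46-fold and Itln1 1.91-fold.

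Transcripts of some listed products that act on lipids were also abundant. Clps, the cofactor of pancreatic lipase, had 2794 TPM, Pnliprp2, a lipase related to the pancreatic one, 2491 TPM, and Pla2g2a, a secreted phospholipase whose gene carries a frameshift in this strain, 809 ± 105 TPM. Pancreatic acinar markers were low beside them, with 2 of 10 (20%) at 1 TPM, against 49.1% of all protein-coding genes. Pnliprp1 lay at 13.8 TPM and Cela1 at 2.43 TPM. Clps was lowest in replicate 3, with 1667, 1521 and 634 scaled CPM, whereas Pnliprp2 was even, with 2608, 2343 and 2244. The chemokine Ccl6 lay at 2396 TPM, the immunoglobulin transporter Pigr at 874 TPM, and the guanylate cyclase ligands Guca2b and Guca2a at 757 and 579 TPM.

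Reg3g and Reg3b, antibacterial lectins, lay at 677 and 184 TPM, and Reg3a had 7 counts in all. Reg3g had 1388, 811 and 582 scaled CPM, and Reg3b 266, 160 and 86.0, both highest in replicate 1. Dmbt1, a scavenger receptor protein of mucosal surfaces, stood the other way, with 178, 459 and 437 scaled CPM. Across the 22 non-defensin products past the filter, 20 were highest in replicate 1 and 18 lowest in replicate 3, with the same 32.9% and 36.3% over all genes as background. In scaled CPM, most defensins and most other products were therefore highest in replicate 1 and lowest in replicate 3, with Dmbt1 among the exceptions. For the other products this order depends on the scale. They held 22.5, 20.2 and 24.2% of TPM, most in replicate 3, and 18.9, 15.8 and 16.0% of counts, least in replicate 2.

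All 22 genes of translocation into the endoplasmic reticulum (ER), all 20 ER chaperone and folding genes and all 16 genes of the unfolded protein response reached 1 TPM, a level that 49.1% of all protein-coding genes reached. P4hb, a protein disulfide isomerase, led with 1229 TPM, followed by the chaperones Calr at 340, Hspa5 at 291 and Pdia3 at 226 TPM. Ern2, the ER stress sensor of mucosal secretory cells, had 154 TPM and exceeded the ubiquitous Ern1 by 4.06 ± 0.112-fold. The summed chaperone list ran at 11348, 8469 and 7626 scaled CPM and the translocation list at 5293, 4038 and 3854, in the same order of mice as the products on that scale. By TPM both lists were highest in replicate 3, with 3233, 2930 and 3487 for chaperones and 1256, 1172 and 1472 for translocation.

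Transcription factors held few of the counts. Of 356 genes in the transcription factor families examined, 180 (50.6%) reached 1 TPM, close to the 49.1% of all protein-coding genes, 93 reached 10 TPM and 9 reached 100 TPM. Together they took 1.19% of counts. Their sum was 12149, 12030 and 11326 scaled CPM, a 1.07-fold range, and their median SD of log2 CPM was 0.16, against 0.49 for the alpha-defensins. Factors thus varied less between the mice than the defensins did.

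Factors of the secretory lineage were nearly all present, with 17 of 19 at 1 TPM. Sox9, a WNT-responsive factor needed for PC formation, had 456, 494 and 349 scaled CPM. Atoh1, the factor that sets the secretory fate, had 222, 200 and 155. Foxa3 had 233, 200 and 181. On the TPM scale these were close to each other, with Sox9 at 171 ± 25, Foxa3 at 165 ± 20 and Atoh1 at 149 ± 10.1 TPM. Bhlha15, which scales up the secretory apparatus, lay at 163 ± 36.1 TPM, Spdef, a factor of goblet cell and PC maturation, at 101 ± 18.3 TPM, and Xbp1, a driver of ER expansion, at 77.4 ± 5.29 TPM. Bhlha15 was the steadiest, with 340, 354 and 329 scaled CPM, while Xbp1 had 427, 305 and 260. Gfi1, a repressor of the endocrine fate in this branch, was lower, at 13.6 ± 0.697 TPM. Neurog3, the endocrine progenitor factor, lay at 2.09 TPM, and Ptf1a, an acinar factor, at 0. Lef1 was among the listed factors under 1 TPM.

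Factors of intestinal identity reached 1 TPM in 17 of 21 cases. Hnf4a, the leading epithelial nuclear receptor of the list, had 130, 188 and 266 TPM and 500, 586 and 630 scaled CPM, highest in replicate 3 on both scales. It exceeded Hnf4g by 14.4-fold. Cdx1 lay at 152 TPM and exceeded Cdx2 by 1.98 ± 0.149-fold. The Gata members expressed were Gata5, Gata4 and Gata6, at 34.7, 19.8 and 17.8 TPM. Elf3, Ets2 and Ehf of the Ets family lay at 121, 112 and 107 TPM. Of the 39 Hox genes 5 reached 1 TPM, led by Hoxb9 at 6.24 and Hoxb8 at 2.77 TPM, and none of 9 Pax genes did. The Tead and E2f families were complete at this level, with 4 of 4 and 8 of 8, while the Sox family had 5 of 19 and the Forkhead family 17 of 45.

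Atf4, the factor of the integrated stress response, lay at 192 ± 33.9 TPM. Creb3l4 and Creb3l1, membrane-bound factors cleaved in the Golgi, lay at 81.9 and 72.2 TPM, and Creb3l1 had 159, 126 and 81.7 scaled CPM. Spib and Pou2f3, known as factors of M cells and tuft cells, had 86.5 and 48.4 TPM. Both were highest in replicate 2, with 138, 212 and 104 scaled CPM for Spib and 80.7, 130 and 69.6 for Pou2f3, the library in which tuft cell markers were highest. Their part in these values was not tested.

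Of 500 receptor genes in the families examined, 141 (28.2%) reached 1 TPM, against 49.1% of all protein-coding genes, 51 reached 10 TPM and 213 had no count in any library. The receptors summed to 8069, 7507 and 7721 scaled CPM. Lgr4, a receptor of R-spondins, led with 135 ± 32.8 TPM and 698, 503 and 601 scaled CPM. Il13ra1, a chain of the interleukin-13 receptor, followed at 90.6 TPM, then Kit, then Erbb3, a neuregulin receptor, at 78.9 TPM. Among relatives, Lgr4 exceeded the stem cell receptor Lgr5 by 5.06-fold, Erbb3 exceeded Egfr by 13.1-fold, and Igf2r exceeded Insr by 3.27-fold. Kit ran at 550, 478 and 445 scaled CPM, and Erbb3 at 325, 293 and 277, so neither differed by more than 1.5-fold between mice.

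Receptors for position in the crypt included Ephb3 at 61.5 TPM, which keeps PCs at the crypt base, Ephb4 at 48.1, Fzd9 at 50.4 and Fzd5, a WNT receptor needed for PC maturation, at 27.9 TPM. Cytokine receptors included Ltbr at 61.4 TPM, Il22ra1 at 47.2, and Ifngr1 at 29.6 TPM, and all 6 interferon receptor genes reached 1 TPM. Tnfrsf1a, the broadly expressed TNF receptor, had 109, 96.0 and 90.8 scaled CPM and exceeded Tnfrsf1b by 15.9-fold in TPM. Among sensors of microbes, 2 of 12 Toll-like receptors reached 1 TPM, Tlr3 at 6.85 and Tlr5 at 2.11, and Nod1 lay at 5.06 TPM while Nod2 stayed under 1 TPM.

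Receptors for neural and metabolic signals differed between families. At 1 TPM were 3 of 4 free fatty acid (75%), 2 of 5 muscarinic (40%) and 1 of 9 adrenergic receptor genes (11.1%), against 28.2% of all receptor genes examined. Chrm3, the muscarinic receptor that triggers granule release, lay at 16.7 ± 4.57 TPM and was even between mice, with 63.1, 57.7 and 64.3 scaled CPM, and Chrm1 lay at 7.41 TPM. Adra2a lay at 27.6 TPM, the ATP-gated channel P2rx4 at 30.8, the VIP receptor Vipr1 at 17.5 and the growth hormone receptor Ghr at 20.9 TPM. The short-chain fatty acid receptors Ffar3 and Ffar2 lay at 20 and 11.8 TPM and the long-chain receptor Ffar4 at 2.27 TPM. No member reached 1 TPM among 14 serotonin, 5 dopamine, 4 histamine and 5 neuropeptide Y receptor genes, nor among 6 complement and formyl peptide receptor genes.

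**Figure D3:**
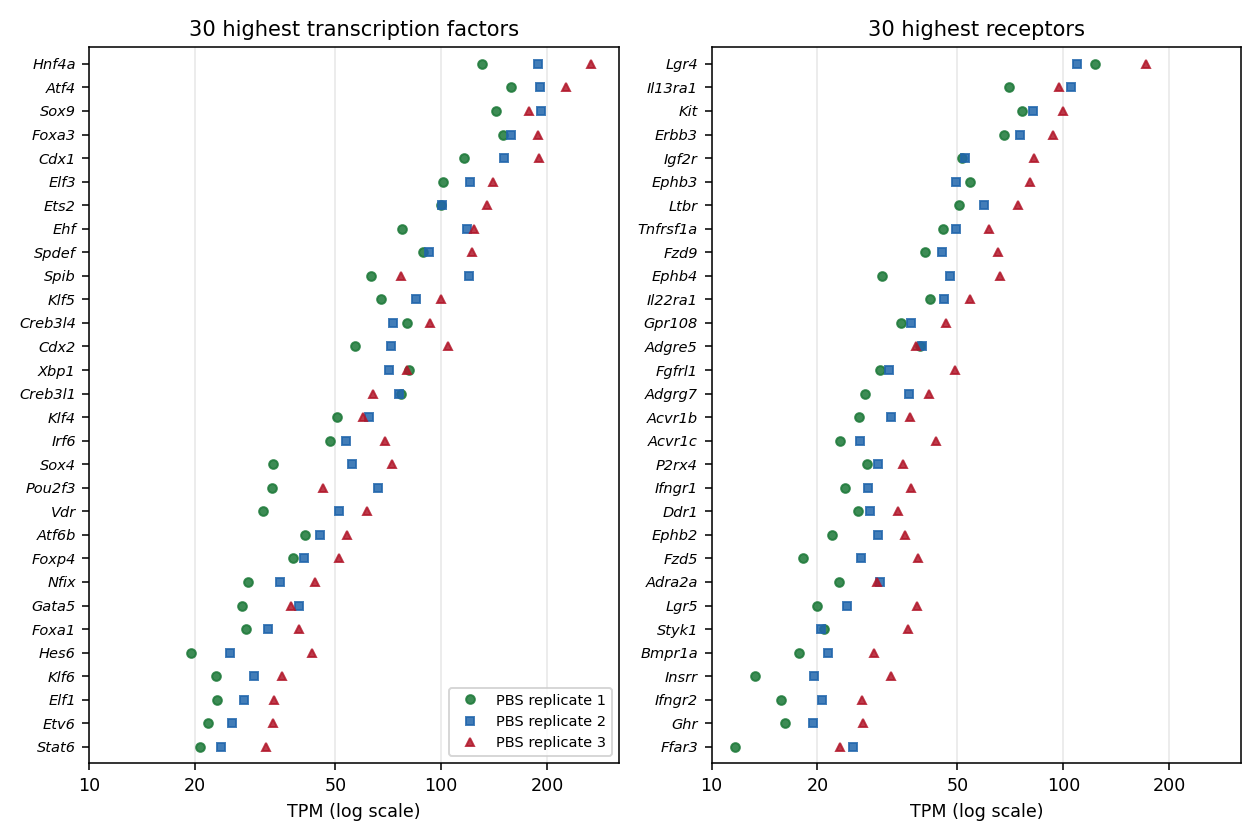
TPM (x axis, log scale) of the 30 transcription factors (left) and 30 receptors (right) with the largest mean, with 1 row for each gene and 1 symbol for each of the 3 PBS libraries. Hnf4a spans 130 to 266 TPM and Lgr4 leads the receptors at a mean of 135 TPM, and replicate 3 lies furthest right for most genes on this scale.

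Of 24 ligands of the stem cell niche, 11 (45.8%) reached 1 TPM, near the 49.1% of all protein-coding genes. Wnt3, the main WNT ligand of PCs, had 79.2, 82.2 and 112 TPM and 190, 160 and 165 scaled CPM. Egf had 6.92, 7.70 and 10.6 TPM, so that Wnt3 exceeded it by 10.9 ± 0.507-fold, a ratio that moved little between mice although each TPM was highest in replicate 3. The Notch ligands Dll4 and Dll1 lay together at 31.6 and 30.4 TPM. Bmp7 and Bmp2 lay at 32.2 and 9.59 TPM, and Tgfa at 5.92 TPM. The 4 R-spondin genes Rspo1, Rspo2, Rspo3 and Rspo4, ligands made by stroma, had 0 counts in every library, which allows up to 0.193 CPM in the shallowest.

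Metabolic genes were mostly expressed but took a small share of molecules. Of 92 cytosolic ribosomal protein genes, 83 reached 1 TPM, and together they took 0.872 ± 0.0938% of TPM and 1.25% of counts, led by Rplp1 at 788 and Rpl4 at 407 TPM. The nuclear genes of the respiratory chain and ATP synthase, 80 of 81 at 1 TPM, took 0.252 ± 0.0435% of TPM, led by Atp5f1b at 306 TPM. With alpha-defensins and Lyz1 left out of the TPM sum, these shares were 2.81% and 0.807%, so they follow the product transcripts in the denominator.

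All 20 genes of the citric acid cycle reached 1 TPM, with 2400, 2448 and 2286 scaled CPM in sum and Pdha1 in front at 93.9 TPM. Glycolysis had 18 of 20, with Tpi1 at 85.2, Ldha at 83.4 and Aldoa at 67.2 TPM. Pklr, the pyruvate kinase of liver, exceeded Pkm, the common form, by 2.52-fold in TPM. By counts the order was reversed, with 6911 for Pkm and 4842 for Pklr in all libraries together. Pkm had 20215 windows against 3725 in Pklr. The order of these genes in TPM therefore depends on the exon length used. Glycolysis summed to 1526, 1597 and 1462 scaled CPM, so both pathways were even between the mice. Gapdh lay at only 20.6 TPM, and 38.8% of its windows were shared with other transcripts, as were 49.6% in Pgk1, for which the treatment of reads with several matches was not tested. Gapdh also had 8204 windows against 4042 in Tpi1, and TPM divides by the length of all annotated exons, so its TPM depends on that length. Fatty acid oxidation reached 1 TPM in 19 of 20 genes and summed to 1056, 1410 and 1143 scaled CPM, with 14 of 19 genes highest in replicate 2, against 29.9% of all genes.

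Cholesterol synthesis had 19 of 20 genes at 1 TPM, led by Hmgcs1 at 80.3 TPM, and fatty acid synthesis 13 of 15, with Fasn at 34.9 TPM. Serine and one-carbon genes had 11 of 12 and the pentose phosphate and glutathione list 18 of 18, where Txn1 and Taldo1 lay at 117 and 115 TPM. PC granules are rich in zinc, and 19 of 24 zinc transporters reached 1 TPM. Slc30a2, a vesicular zinc exporter, led them with 59.6 ± 12.3 TPM and 153, 126 and 134 scaled CPM. Channels of water and chloride included Clca3b at 337, Aqp1 at 257 and Cftr at 24.8 TPM, the last with 83.7, 97.7 and 145 scaled CPM. Of the detoxifying families, 21 of 100 cytochrome P450 genes and 9 of 42 glucuronosyl- and sulfotransferases (21.4%) reached 1 TPM, against 49.1% of all protein-coding genes.

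Mitochondrially encoded mRNAs were split. Of 13, 7 reached 1 TPM, led by mt-Co1 at 3314 and mt-Cytb at 1491 TPM, and 6 were at 0. Of these 6, mt-Co3, mt-Co2, mt-Atp6, mt-Nd3 and mt-Nd4l shared 98.7 to 99.9% of their 75-base windows with another annotated transcript, while mt-Atp8 shared 0%. Genes that every respiring cell uses are thus listed at 0, and the detected part describes the mitochondrial transcripts only in part. The detected mRNAs summed to 5562, 5792 and 3553 scaled CPM. By TPM their sums were 5409, 6919 and 5662, so the lowest library depends on the scale. In scaled CPM, mt-Co1 had 3457, 3627 and 2325, and mt-Nd4 and mt-Nd2, at lower levels, had 191, 203 and 36.6 and 122, 137 and 14. In contrast to these, mt-Nd6, on the other strand, had 68.9, 66.5 and 83.8.

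Markers of other cell types were examined over 155 genes, of which 93 reached 1 TPM, a level that 49.1% of all protein-coding genes reached. They held 2.23% of counts and 0.941% of TPM. The lists differed widely: every goblet, tuft, stem and proliferation gene examined reached 1 TPM in each library, and all 16 enterocyte genes did so by the mean but 7 in each library, whereas none of 20 stromal and endothelial genes did. Some of these genes may be expressed by PCs themselves, which bulk libraries do not separate from other cells in the sort, and this was not tested.

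Goblet cell markers were the most abundant. All 13 reached 1 TPM, and their summed level was 5980, 4610 and 4971 TPM, led by Tff3 at 2324, Agr2 at 1060, Muc2 at 687 and Fcgbp at 460 TPM. In scaled CPM they summed to 15725, 8663 and 10367, with 11 of 13 highest in replicate 1, against 32.9% of all genes. Muc2, the gel-forming mucin, had 7284, 3630 and 6227, Fcgbp 4651, 2464 and 2065, and Zg16, a mucus lectin, 85.5, 35.9 and 33.3. Replicate 1 was thus the library with both the highest goblet markers and the highest PC products.

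Tuft cell markers, which mark chemosensory cells, numbered 14 of 14, with 590, 1167 and 946 TPM in sum. In scaled CPM they summed to 2098, 3198 and 2007, and 14 of 14 were highest in replicate 2. Over all genes 29.9% were highest in that replicate. Trpm5, a cation channel of taste signalling, had 517, 755 and 512 scaled CPM, Rgs13 142, 238 and 133, and Dclk1, a tuft cell kinase, 620, 907 and 574. The other libraries lay close to each other in all 3 of these genes.

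Stem cell markers were 14 of 14, with 1306, 1810 and 3129 TPM in sum. Olfm4 dominated at 1570 TPM, followed by Slc12a2 at 140, Prom1 at 73.1, Rgmb at 48.5 and Smoc2 at 42.1 TPM. In scaled CPM the list ran at 4748, 5078 and 6415, with Olfm4 at 2120, 2461 and 3424 and Lgr5 at 156, 154 and 185. Here 10 of 14 were highest in replicate 3, against 37.1% of all genes. Proliferation genes numbered 16 of 16 but were low, with Top2a at 38.0, Mki67 at 32.3 and Pcna at 23.1 TPM and sums of 770, 774 and 861 scaled CPM. The library with least defensin thus had most stem cell marker transcripts, and whether the make-up of the sort differed was not tested.

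Enterocyte markers, 7 of 16 at 1 TPM in every library, summed to 453, 636 and 632 TPM, led by Vil1 at 223 and Anpep at 158 TPM. Both are brush border proteins that other epithelial cells can carry. Of the 11 enterocyte markers past the filter on low counts, 8 were highest in replicate 2, against 29.9% of all genes. Low markers of the list included Apoa1, with 1.16, 23.3 and 2.61 scaled CPM, and Lct, the lactase, with 0.0645, 10.8 and 0.987. Enteroendocrine markers, 8 of 15 (53.3%) at 1 TPM, near the share of all protein-coding genes, summed to 165, 202 and 64.2 scaled CPM, a 3.14-fold range. Ghrl had 36.4, 78.4 and 7.67 scaled CPM and Chga 25.7, 21.5 and 2.27, while Nts was at 0 in every library. Replicate 3 thus had the fewest endocrine transcripts.

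Cells from outside the epithelium left few transcripts. Of 25 leukocyte markers, 5 (20%) reached 1 TPM and 15 had no count, and the list summed to 58.3, 47.9 and 84.6 TPM. Most of it was Cd74, the invariant chain that epithelium can also express, at 51.8 TPM. Ptprc, the pan-leukocyte surface marker, had 11.9, 27.7 and 12.7 scaled CPM, and the lymphocyte genes Cd3g, Cd3e, Cd79a and Ms4a1 were at 0. The stromal and endothelial list summed to 2.50 to 4.24 TPM, with Col3a1, Cdh5 and Acta2 at 0. Of 6 erythroid genes, 2 had a count and none reached 1 TPM, and all 4 globin genes were at 0.

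**Figure D4:**
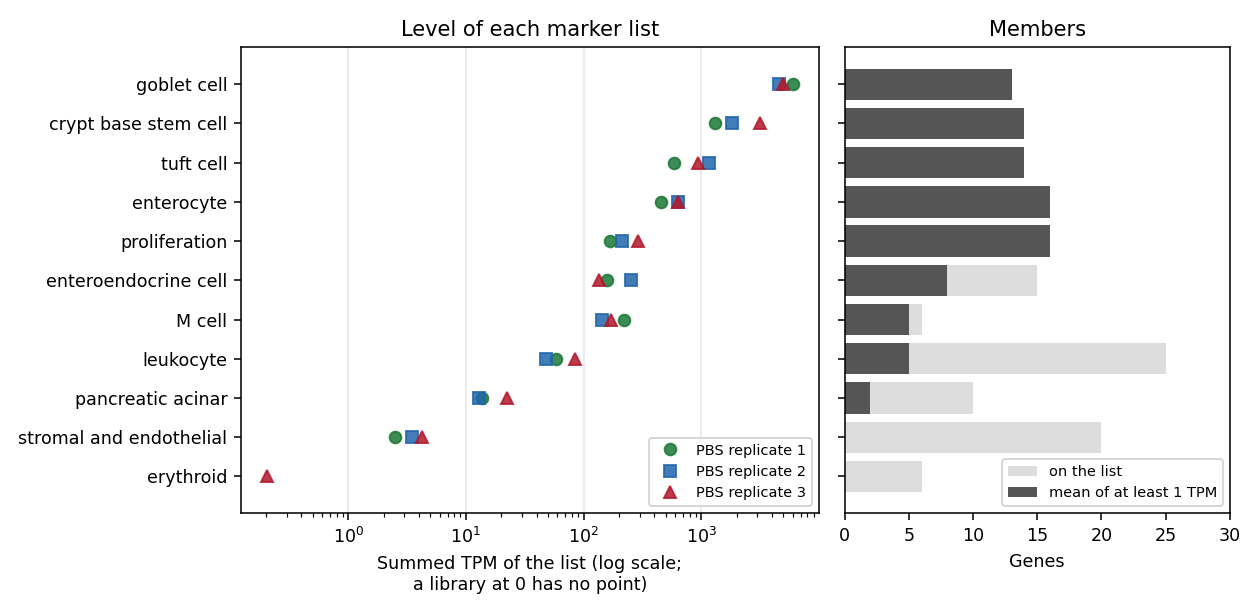
The left panel gives the summed TPM of each marker list (x axis, log scale) with 1 symbol for each of the 3 PBS libraries, and the right panel the number of genes on each list, in dark grey those with a mean of at least 1 TPM. Goblet cell markers lie at 4610 to 5980 TPM, stem cell markers at 1306 to 3129 TPM and stromal and endothelial markers at 2.50 to 4.24 TPM.

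Genes that mark either end of the small intestine were detected in part. Of 8 duodenal and jejunal genes, 5 (62.5%) reached 1 TPM, against 49.1% of all protein-coding genes, led by Cybrd1 at 39.1 TPM. Of 10 ileal genes 4 (40%) did, none of them above 6.24 TPM. Slc10a2, the ileal bile acid carrier, and Onecut1, a duodenal factor, were at 0. Immediate early and stress genes, which respond to tissue handling, numbered 16 of 18 at 1 TPM. Jund led with 181 TPM, and Fos had 42.0, 53.8 and 90.7 and Fosb 26.5, 44.6 and 70.8 scaled CPM. The list as a whole was even, with sums of 1306, 1446 and 1462 scaled CPM, and 6 of 16 genes were highest in replicate 3, against 37.1% of all genes. Xist was present in every library, at 42.4, 64.6 and 162 TPM, Kdm5d had 2 counts, and Uty, Ddx3y and Eif2s3y had 0.

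The 3 libraries agreed closely over most genes. The biological coefficient of variation estimated by edgeR was 0.172, Spearman correlations between libraries were 0.982 to 0.990 across genes, which are not independent replicates, and the median SD of log2 CPM was 0.18. The median coefficient of variation was 12.9%, against 5.28% from counting alone. Of all 12928 genes, 1280 (9.90%) spanned more than 2-fold, but among the 8705 genes of at least 10 CPM only 1.79% did. The most abundant genes were less steady than these: of 44 genes of at least 1000 CPM, 10 (22.7%) spanned more than 2-fold, and their median SD was 0.29.

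**Figure D5:**
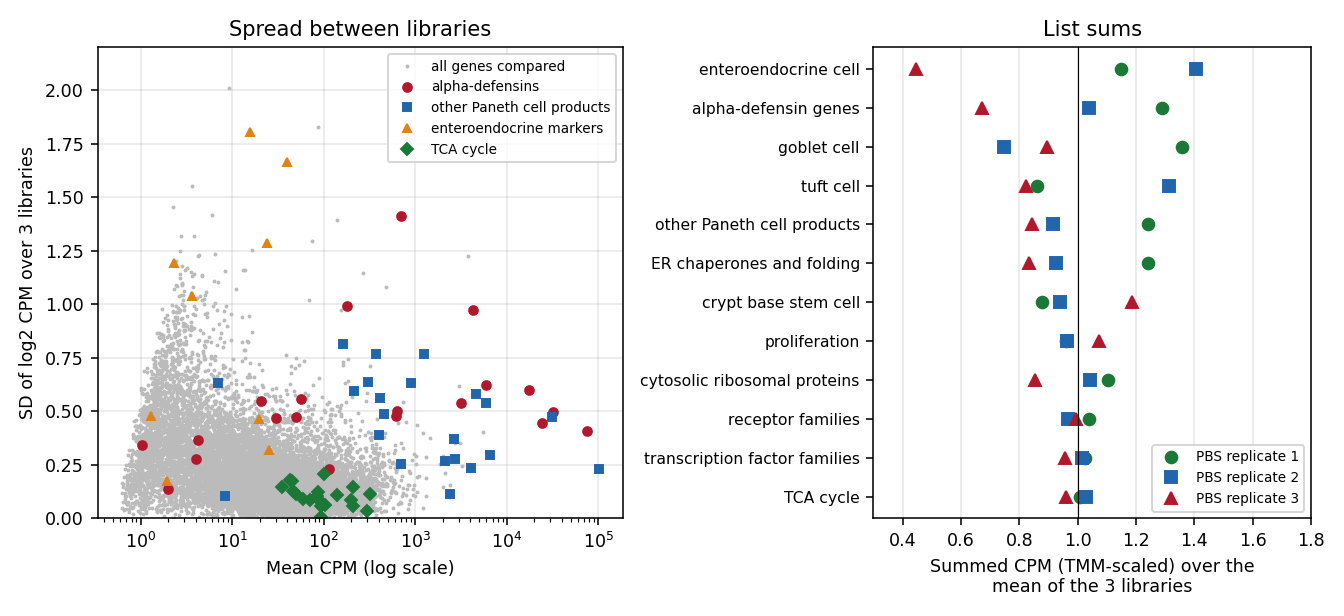
The left panel gives the SD of log2 scaled CPM over the 3 PBS libraries (y axis) against mean CPM (x axis, log scale), with 1 point for each gene and 4 lists marked, and the right panel the summed scaled CPM of each list over its mean in the 3 libraries. The alpha-defensins, with a median SD of 0.49, lie mostly above the median of 0.18 over all genes, and the enteroendocrine list has the widest sums.

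Lists differed in this spread. The median SD was 1.04 for enteroendocrine markers, 0.53 for goblet markers, 0.49 for alpha-defensins and 0.42 for tuft markers, and 0.15 for stem markers, 0.16 for transcription factors, 0.21 for receptors and 0.11 for proteasome and for citric acid cycle genes. It was also high for leukocyte markers at 0.62, mitochondrially encoded mRNAs at 0.55 and enterocyte markers at 0.50, so large medians were not particular to secretory lists.

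Among genes of at least 50 CPM, those with the largest SD included mt-Nd2 (1.83), Defa17 (1.41), mt-Nd4 (1.39), Rn18s-rs5 (1.22), Mir6236 (1.15), mt-Rnr1 (1.08), Tmsb10 (1.02), Defa3 (0.99) and Lars2 (0.98). Defa17 had 1020, 988 and 184 scaled CPM and Defa3, identical to it over the stretch shown above, 252, 233 and 73.4. Rn18s-rs5, a ribosomal RNA sequence, had 8246, 1926 and 1871, Mir6236 572, 153 and 137, and Lars2 292, 80.6 and 106, all highest in replicate 1. Annotated ribosomal RNA took 0.735, 0.195 and 0.208% of counts, so replicate 1 stood apart from the others in this class. The 10 smallest SDs, from 0.002 to 0.008, belonged to Scaf11, Fbxo11, Grb2, Gak, Prrc2a, Sdhd, Anapc2, Cdc42bpa, Ammecr1l and Atp11b. Scaf11 had 162 scaled CPM in each library, with a coefficient of variation of 0.107% against 1.90% from counting, and all 10 lay below their counting error, so these ranks do not show steadier genes.

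Differences of 1 library from the other 2 were few. At 10 CPM or more, 6 genes in replicate 1, 2 in replicate 2 and 9 in replicate 3 lay over 2-fold above both others, and 9, 3 and 22 lay over 2-fold below both. Ranked by the ratio of a library to the mean of the other 2, whether or not it passed 2-fold or was the extreme, replicate 1 led upward in Rn18s-rs5, Mir6236, Lars2, Zg16 and Reg3b, and downward in Pcsk5, Erdr1y, Dmbt1 and Banp. Replicate 2 led upward in Ghrl, Ptprc, Hmx2 and Gcnt1, of which Hmx2 had 17.0, 33.2 and 14.8 scaled CPM, and downward in Airn, Rn18s-rs5, Lars2, Mir6236 and Lyz2, of which Rn18s-rs5 and Mir6236 were not lowest there but high in replicate 1. Replicate 3 led upward in Cbx3-ps8, Airn, Clca3a2, Lncpint and Fam193b, and downward in mt-Nd2, Chga, Ghrl, Defa17 and mt-Nd4. Malat1, a nuclear noncoding RNA, had 3916, 5427 and 6852 scaled CPM, and long noncoding RNAs took 0.718, 0.984 and 1.40% of counts. By scaled CPM replicate 3 thus had least defensin and mitochondrial mRNA, and by share of counts it had most long noncoding RNA; what ties these values together was not tested.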

How the data were processed

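Sorted PCs of 3 mice were measured by RNA-seq after PBS. The deposited values are raw counts, whole numbers of reads per Ensembl gene, made by the authors. The submitters' processing notes name FastQC, Trimmomatic 0.39, STAR 2.7.10a, DESeq2 and the builds mm10 and mm39, with no role or order. Not given in the sources used here were the counting program, the annotation, the use of strand and the treatment of reads with several matches. Overlapping, antisense and near-identical genes are therefore uncertain.

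Symbols, biotypes and coordinates were matched by identifier to GENCODE M39 on GRCm39 for 54749 of 55414 identifiers (98.8%). TPM was computed from the counts and the union of exons of each gene, which assumes that reads covered whole transcripts, and this is not stated for these libraries. For values between libraries, edgeR 4.0.16 in R 4.3.3 gave filterByExpr (12928 genes kept), TMM factors (0.891, 1.01 and 1.11) and the common dispersion. SDs are those of log2(CPM + 0.5). A gene counts as expressed at a mean of at least 1 TPM. Scripts were tested on simulated data. Tables were handled in Python 3.11.15 with pandas 2.3.3.

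Gene lists (32) and symbol-pattern families (77) were used, and 495 of 496 listed symbols were found. The group of libraries to describe and the lists were chosen with earlier results of these data known. Genes were named when they were PC markers, among the 20 genes largest by counts or by TPM, among the 5 largest of a list or family, listed markers at 0, among the 10 most or least variable at 50 CPM, or among the 5 furthest in 1 library at 10 CPM. Gm and Rik symbols were left out of the last 2. Other genes were named after their values were seen. A few genes that the rule names are not reported here. Shared windows of 75 bases were counted over all GENCODE M39 transcripts, and longer reads would be shared less often. Sequences are from GENCODE M39 and from RefSeq (GRCm38.p6). Depth was 15511455 to 18388058 counts per library. No molecular identifiers mark independent molecules. The TNF libraries and the test of TNF against PBS were not used here.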

Additional observations from a re-analysis of the deposited data

How the results depend on the processing

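No value of the report was tested, and the alternatives were run for the summary quantities named here and for 11 single lineage lists. Of 72 values for the former, 49 stayed within the limit set, and 46 of 66 for the latter. The limit was 1.5-fold for counts of genes and 1 SD for the others. These totals include the values with 1 library left out. For shares and summed levels, a mean of 3 libraries cannot move by 1 SD when 1 is left out. Those values could not pass the limit, so the totals do not measure stability. On the TPM scale in place of counts, the 10 most abundant genes held 73.1%, the alpha-defensins 55.6% and the other products 22.3%. Against 12074 genes at 1 TPM on average, 7117 reached 5 TPM and 18929 had a count, and for receptors 80 and 287 against 141. The share of ribosomal proteins was 1.25% by CPM, 1.21% with the longest transcript as length and 2.81% without alpha-defensins and Lyz1, against 0.872%, and that of respiratory chain genes 0.514, 0.352 and 0.807%, against 0.252%. All lineage lists summed to 22342 by CPM and 30302 without alpha-defensins and Lyz1, against 9411 TPM. The coefficient of variation was 0.214 with scaling by total counts and 0.204 without a filter, against 0.172, and the median SD 0.23 by total counts, 0.20 without a filter and 0.16 with a prior of 2 CPM, against 0.18. The cause of the changes with scaling was not tested; the others follow from how each alternative was built.

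Leaving out 1 library in turn gave 28.7 to 32.7% for the first 10 genes, 15.0 to 18.4% for alpha-defensins, 15.9 to 17.5% for other products, 11480 to 12528 genes, 174 to 180 factors, 136 to 146 receptors, 0.829 to 0.922% for ribosomal proteins, 0.234 to 0.276% for respiratory chain genes and 8922 to 9669 TPM for lineage lists. The coefficient of variation ran from 0.134, without replicate 3, to 0.196, and the median SD from 0.13 to 0.17, both lowest without replicate 3. No paired analysis was possible because only 1 group was described and its results come from no test. With 3 libraries the spread itself is known only roughly.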
